A study of Homo sapiens with 2 samples.

Results

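The genes for replication-dependent histones were examined in 2 ChIPmentation libraries of PANC-1, a long-established line from a human ductal carcinoma of the pancreas. ChIPmentation is a form of chromatin immunoprecipitation in which Tn5 transposase adds the sequencing adapters on the beads. One library came from cells given inflachromene, a compound that binds the chromatin proteins HMGB1 and HMGB2, and 1 from cells treated with the solvent DMSO. Both groups are the same line, fixed with EGS and then formaldehyde, and the labels give no dose, no duration and no name for the antibody's target. Members were the RefSeq protein-coding genes named H1-1 to H1-6, or H2AC, H2BC, H3C or H4C followed by a number. This gave 69 of 19974 protein-coding genes on chromosomes 1 to 22 and X. They comprised 17 H2A, 18 H2B, 13 H3, 15 H4 and 6 H1 genes. On 6p22 lay 55 of them, 13 lay on 1q21 and 1q42, and 1, H4C16, lay on chromosome 12. H2BC12L on chromosome 21, whose name carries a further letter, was left out and had no peak in either list.

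A gene was said to have a peak when the summit of a deposited peak lay within 1000 bp of either annotated end. Overlapping peaks of the 2 lists made 1 position, counted once. The strength of a peak is given as its pileup, the whole number of fragments over the summit, which was recovered from the deposited fold enrichment and p-value. With 1 sample per treatment there is no replicate check, no test between treatments and no p-value. All differences compare 2 libraries. Intervals of pileups and of their ratios cover counting error only. Those of shares and of median ratios treat genes or positions as independent draws. No interval covers the spread between cultures. In cells taken in bulk, a lower pileup from fewer cells and one from less signal per cell cannot be told apart.

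Replication-dependent histone genes supply the nucleosome's core proteins H2A, H2B, H3 and H4 and the linker histone H1 while DNA is copied. They lack introns for the most part, their mRNAs end in a stem-loop in place of a poly(A) tail, and many H2A and H2B genes are arranged head to head around a shared promoter. Their transcription is coupled to S phase through NPAT, a substrate of cyclin E and CDK2, with HINFP acting at H4 promoters and OCT1 (POU2F1) at the octamer of H2B promoters.

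The upstream sequences below are those of genes at the extremes of the ratio of inflachromene to DMSO pileup, or at a position in DMSO alone. Genes of like build that had peaks in both lists or in neither are given for comparison. None of the positions with a peak in inflachromene alone is shown. Each sequence is taken from the RefSeq promoter table of GRCh38.p14, which holds 64 of the 69 members. H2AC12, H3C11, H3C12, H4C1 and H4C3 had no entry. Capitals mark exact matches, on either strand, to the TATA box (TATAAA), the CCAAT box (CCAAT), the core of the octamer (ATTTGCA), the H1 box (AAACACA) and the core bound by HINFP (GGTCCG). Matches that overlap one another run together. The first set, on the + strand, runs between the facing starts of an H2A and an H2B gene, or to the annotated end of H2AC12, whose start the table does not hold: H2BC12/H2AC12 with the lowest ratio of inflachromene to DMSO pileup (chr6:27146859-27147105), H2AC7/H2BC7 and H2BC8/H2AC8 with the highest (chr6:26199294-26199515 and chr6:26216689-26216920), H2AC17/H2BC17 with peaks in both lists (chr6:27893186-27893424), H2AC25/H2BC26 with a peak in DMSO alone (chr1:228457874-228458102) and the germ-cell pair H2AC1/H2BC1 with none (chr6:25726563-25726776).
H2BC12/H2AC12: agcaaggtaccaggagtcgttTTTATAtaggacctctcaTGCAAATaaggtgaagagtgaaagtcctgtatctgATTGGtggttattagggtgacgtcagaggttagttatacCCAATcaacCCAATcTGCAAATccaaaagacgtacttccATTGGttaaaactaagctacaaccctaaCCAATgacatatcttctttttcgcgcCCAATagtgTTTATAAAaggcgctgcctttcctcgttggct
H2AC7/H2BC7: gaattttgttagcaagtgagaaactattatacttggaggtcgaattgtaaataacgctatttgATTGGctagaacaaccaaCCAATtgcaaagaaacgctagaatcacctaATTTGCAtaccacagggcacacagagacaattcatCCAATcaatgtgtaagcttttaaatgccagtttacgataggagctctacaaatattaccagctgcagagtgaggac
H2BC8/H2AC8: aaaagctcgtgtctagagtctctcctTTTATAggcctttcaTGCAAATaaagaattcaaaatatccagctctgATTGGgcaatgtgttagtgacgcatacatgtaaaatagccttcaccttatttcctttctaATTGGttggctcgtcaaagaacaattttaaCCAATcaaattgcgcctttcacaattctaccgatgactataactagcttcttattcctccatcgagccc
H2AC17/H2BC17: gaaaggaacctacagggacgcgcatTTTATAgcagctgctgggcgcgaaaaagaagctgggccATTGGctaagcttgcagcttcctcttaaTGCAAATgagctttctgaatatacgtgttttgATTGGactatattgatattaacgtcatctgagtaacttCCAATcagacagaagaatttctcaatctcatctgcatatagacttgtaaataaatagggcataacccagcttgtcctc
H2AC25/H2BC26: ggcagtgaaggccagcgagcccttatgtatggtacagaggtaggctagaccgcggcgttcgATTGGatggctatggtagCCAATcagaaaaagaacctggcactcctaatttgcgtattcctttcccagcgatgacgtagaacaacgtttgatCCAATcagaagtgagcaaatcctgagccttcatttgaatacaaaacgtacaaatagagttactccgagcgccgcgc
H2AC1/H2BC1: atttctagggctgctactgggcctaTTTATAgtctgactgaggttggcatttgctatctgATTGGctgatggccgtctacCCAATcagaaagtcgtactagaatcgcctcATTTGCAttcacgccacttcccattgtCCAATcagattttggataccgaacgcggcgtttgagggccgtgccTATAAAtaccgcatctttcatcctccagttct

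The second set gives the 150 bases before the start of single genes, each on its own coding strand. H3C10 (chr6:27809901-27810050, +) and H4C11 (chr6:27823942-27824091, +) had a peak in DMSO alone, and H4C8 (chr6:26285535-26285684, -) had the strongest H4 peak of both lists. H4C6 (chr6:26240243-26240392, +) had no peak. H1-4 (chr6:26156179-26156328, +) had a peak at its start in DMSO alone, and H1-3 (chr6:26234988-26235137, -) had none.
H3C10: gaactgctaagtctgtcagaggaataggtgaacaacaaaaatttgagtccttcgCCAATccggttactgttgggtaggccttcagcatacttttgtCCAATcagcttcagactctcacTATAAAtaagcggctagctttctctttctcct
H4C11: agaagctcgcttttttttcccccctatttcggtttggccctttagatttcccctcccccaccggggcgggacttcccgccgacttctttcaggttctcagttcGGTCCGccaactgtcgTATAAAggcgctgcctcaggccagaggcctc
H4C8: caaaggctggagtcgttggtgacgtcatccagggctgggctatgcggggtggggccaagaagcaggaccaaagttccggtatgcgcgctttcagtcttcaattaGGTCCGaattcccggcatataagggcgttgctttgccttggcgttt
H4C6: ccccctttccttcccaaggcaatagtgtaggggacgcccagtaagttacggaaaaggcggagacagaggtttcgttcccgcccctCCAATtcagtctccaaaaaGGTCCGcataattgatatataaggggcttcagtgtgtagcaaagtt
H1-4: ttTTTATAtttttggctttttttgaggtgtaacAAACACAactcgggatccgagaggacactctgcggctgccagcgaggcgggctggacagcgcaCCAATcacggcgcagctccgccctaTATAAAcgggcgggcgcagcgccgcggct
H1-3: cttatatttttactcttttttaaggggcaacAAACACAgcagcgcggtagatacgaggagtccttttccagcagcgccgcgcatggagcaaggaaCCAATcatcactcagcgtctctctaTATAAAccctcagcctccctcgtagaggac

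The letters differed by family. In the 250 bases before the start, all 16 H2A, 18 H2B, 11 H3 and 6 H1 promoters in the table held CCAAT, against 3 of 13 H4 promoters and 34.4% of 15813 protein-coding promoters. The octamer core was present in 14 of 18 H2B and 11 of 16 H2A promoters, many of them the same shared stretch, against 3.13% of all. GGTCCG was present in 12 of 13 H4 promoters against 12.2% of all, and AAACACA in all 6 H1 promoters and no other member, against 3.7%. TATAAA was found in 42 of 64 members and 9.25% of all promoters. CCAAT was found in 42 of 50 members with a peak and 12 of 14 without one, TATAAA in 34 of 50 and 8 of 14, and the octamer core in 23 of 50 and 3 of 14. The 14 hold 4 of the 6 H1 promoters, none of which has the octamer core. A match is a description of letters and not evidence that a factor was bound.

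Most histone genes carried peaks in inflachromene and DMSO alike. Of 69 members, 47 did, 3 had a peak in inflachromene alone, 4 in DMSO alone and 15 in neither. The inflachromene list held 10836 peaks and the DMSO list 15186. With the DMSO list cut to the length of the inflachromene list, 12 members had a peak in inflachromene alone and 4 in DMSO alone. With a −log10 q of 5 or more in both lists these were 8 in inflachromene alone and 4 in DMSO alone. The shares over all protein-coding genes under these cuts were not computed, so these counts cannot be read as particular to histone genes. In the full lists, a peak in at least 1 list was found at 78.3% (95% interval 66.7 to 87.3) of the members, against 47.4% of all protein-coding genes. A peak in both was found at 68.1% against 36.6%. In inflachromene 50 members had a peak, 72.5% against 38.2% of all genes, and in DMSO 51, 73.9% against 45.8%. Of the 51 members with a DMSO peak, 4 had none in inflachromene, 7.84% (2.18 to 18.9), where 20.2% of all genes with a DMSO peak had none. Of the 50 with an inflachromene peak, 3 had none in DMSO, where the share over all genes was 4.16%. The members are not independent, since 18 of the 43 positions held the ends of more than 1 of them, and intervals over genes are therefore too narrow.

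**Figure D1:**
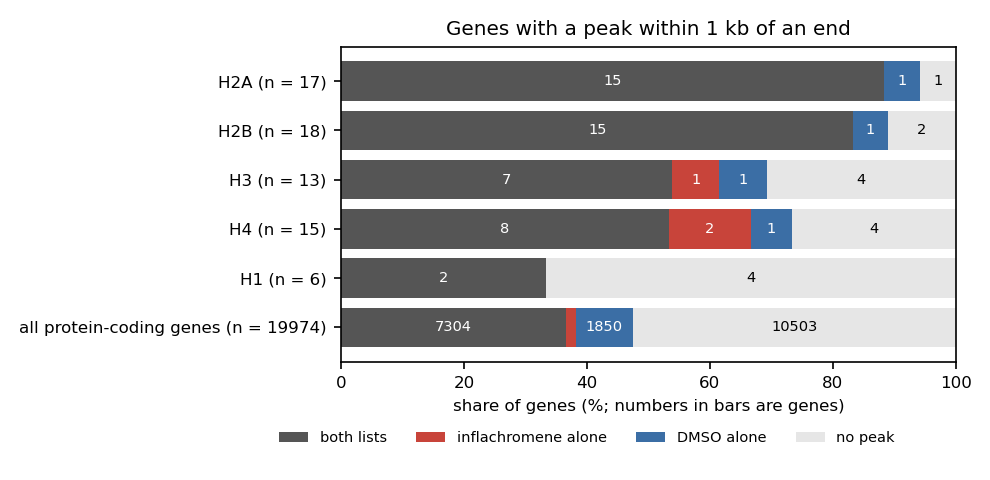
Share of genes (%, x axis) with a peak within 1 kb of an end in both lists, in inflachromene alone, in DMSO alone or in neither, by histone family and for all protein-coding genes; numbers in the bars are genes. Peaks in both lists were found at 15 of 17 H2A genes and 15 of 18 H2B genes, against 2 of 6 H1 genes. Over all protein-coding genes the share was 36.6%.

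Counted as positions, 34 had a peak in both lists, 5 in inflachromene alone and 4 in DMSO alone. Of 38 histone positions with a DMSO peak, 10.5% (2.94 to 24.8) had no inflachromene peak, and the share over all 8202 positions with a DMSO peak at coding gene ends, 23.8%, lay within this interval. In the other direction 12.8% (4.3 to 27.4) of 39 positions with an inflachromene peak had no DMSO peak, against 5.51% of 6611, again within the interval. Over all coding gene ends, 364 positions were in inflachromene alone and 1955 in DMSO alone.

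Among the core histones, H2A and H2B genes had the fullest coverage. Of 17 H2A genes, 15 had a peak in both lists, H2AC25 in DMSO alone and H2AC1 in neither. Of 18 H2B genes, 15 had one in both lists, H2BC26 in DMSO alone, and H2BC1 and H2BC9 in neither. The shares in both lists were 88.2% (63.6 to 98.5) for H2A and 83.3% (58.6 to 96.4) for H2B. Over all protein-coding genes the share was 36.6%. Among the annotated starts, 13 pairs of members lay less than 1000 bp apart and faced away from each other. One of these, H3C7 and H2BC9, was 978 bp apart and had no peak. H3C4 made a pair with H2BC7 only through an annotated start that coincides with that of H2AC7. The shortest gap between starts was 193 bp, at H2AC15 and H2BC15, and the median gap was 235 bp. The inflachromene summit lay between the starts at 10 pairs and the DMSO summit at 11. The pair that differed was H2AC25/H2BC26, and H2AC1/H2BC1, whose products are known from the testis, had no summit in either list.

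The strongest promoters among these 13 pairs were much alike in height. At H2BC13/H2AC13 the summit held 49 fragments in inflachromene (Poisson interval 36.3 to 64.8) and 55 in DMSO (41.4 to 71.6), a ratio of 0.891 (0.594 to 1.334). At H2BC11/H2AC11 it held 48 in inflachromene (35.4 to 63.6) and 52 in DMSO (38.8 to 68.2), a ratio of 0.923. At H2BC21/H2AC20 on 1q21 it held 48 fragments in inflachromene and 49 in DMSO, at a summit that also lay within 1000 bp of H2AC21. The intervals of the libraries overlapped at each of these promoters. H2BC4/H2AC6 had 49 fragments in inflachromene and 41 in DMSO, and H2AC14/H2BC14 had 41 in inflachromene and 47 in DMSO. H2AC15/H2BC15 had 46 in inflachromene and 37 in DMSO. Inflachromene was thus the higher library at some of these promoters and the lower at others. Over the 9 shared positions with H2A and H2B genes alone, 399 fragments in inflachromene stood against 403 in DMSO, a ratio of 0.99 (0.86 to 1.14). H2BC5, which encodes another H2B, had 44 fragments in inflachromene and 58 in DMSO at a summit upstream of its start, a peak that also lay within 1000 bp of the 3′ end of H1-4.

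A few H2A and H2B promoters departed from this. H2BC12/H2AC12, shown above, had 35 fragments in inflachromene (24.4 to 48.7) and 65 in DMSO (50.2 to 82.8). Of the 34 shared positions this was the lowest ratio, 0.538 (0.346 to 0.824). The mean pileup of H2BC12/H2AC12, 50 fragments, equalled that of H2BC11/H2AC11. It was not counted among the 13 pairs because the start of H2AC12 was not known. The inflachromene summit lay 109 bp and the DMSO summit 110 bp upstream of the H2BC12 start. In the opposite direction, H2AC7/H2BC7 had 36 fragments in inflachromene (25.2 to 49.8) and 18 in DMSO (10.7 to 28.4), a ratio of 2.0 (1.106 to 3.741). There the summits lay 75 bp upstream of the H2AC7 start in inflachromene and 81 bp upstream of the H2BC7 start in DMSO. H2BC8/H2AC8 followed with 34 fragments in inflachromene and 20 in DMSO, a ratio of 1.70 whose interval of 0.951 to 3.117 included 1. Over all shared positions at coding gene ends, 19% had a ratio of at most 1/1.5 and 1.1% one of at least 1.5. Among the 34 histone positions 1 was as low and 2 were as high.

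The 1q42 pair H2AC25/H2BC26 had a DMSO peak of 29 fragments (19.4 to 41.6), with its summit 67 bp upstream of the H2BC26 start, and no inflachromene peak. A missing peak is not a pileup of 0. Among 2828 inflachromene peaks whose local background was within 15% of that at this pair, the weakest held 11 fragments. Of single genes, H2BC3 had 49 fragments in inflachromene and 48 in DMSO, and H2AC16 had 35 in inflachromene and 28 in DMSO. A summit upstream of the H2AC21 start, also within 1000 bp of an end of H2AC20, had 36 in inflachromene and 31 in DMSO. A second H2BC4 position, downstream of its start, had 30 in inflachromene and 38 in DMSO. These single positions again lay on either side of an equal height. H2BC10, H2BC18 and H2BC6 had the lowest mean pileups among shared H2B positions, in that order 15, 20 and 21 fragments in inflachromene and 14, 14 and 18 in DMSO.

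**Figure D2:**
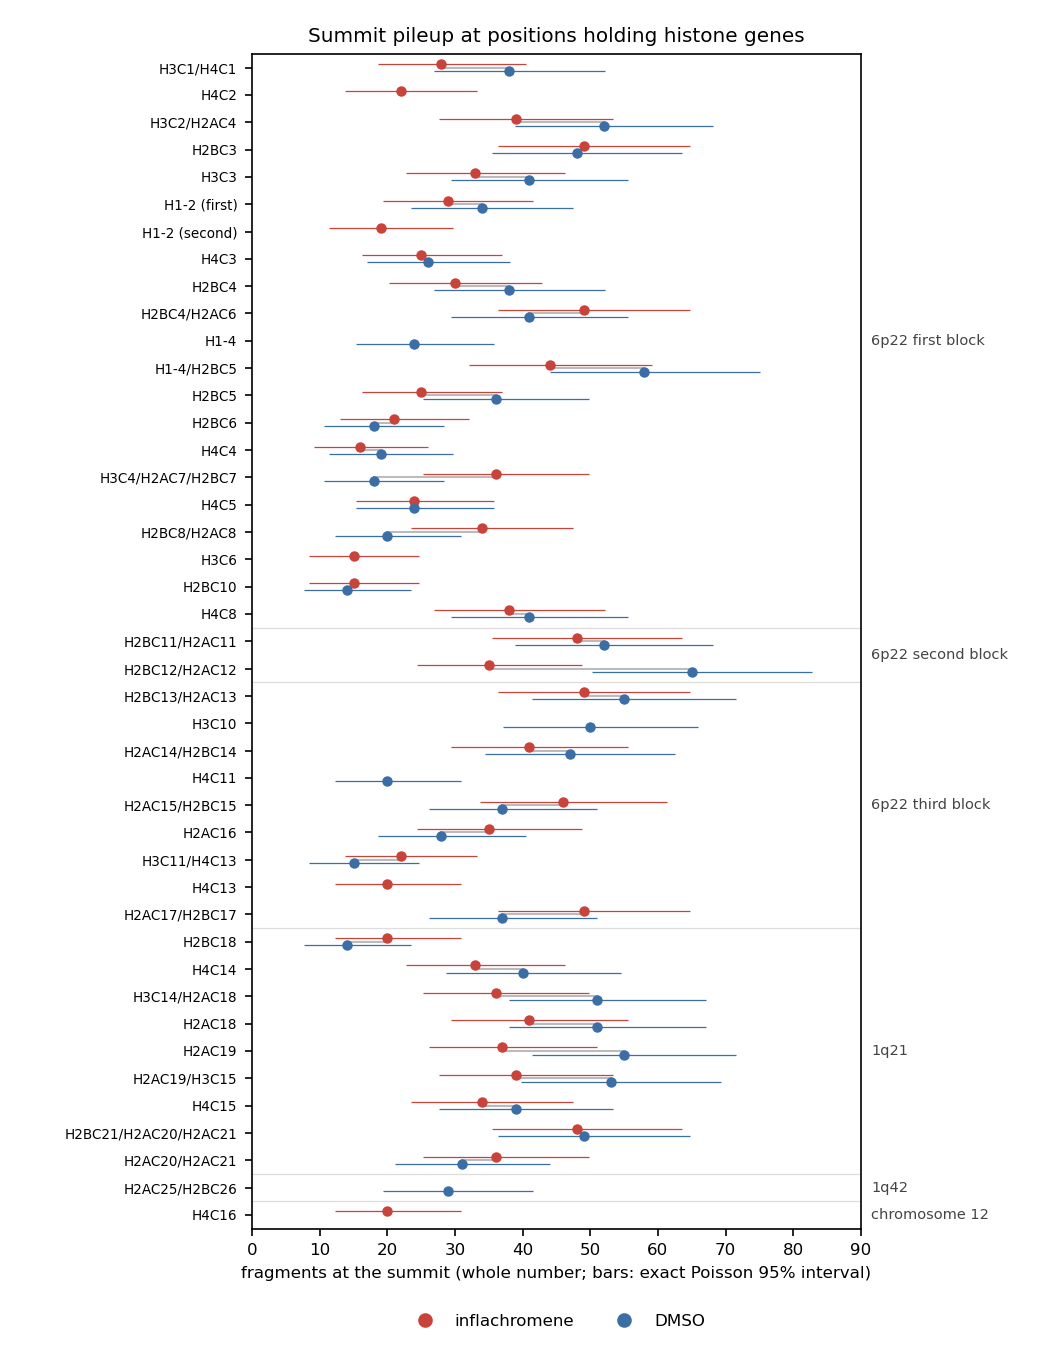
Fragments at the summit (x axis) for each of the 43 positions holding a histone gene end, in chromosomal order within each block; red points are inflachromene, blue points DMSO, bars are exact Poisson 95% intervals and grey lines join positions with a peak in both lists. H2BC12/H2AC12 has the widest gap to the DMSO side (35 fragments in inflachromene against 65 in DMSO) and H3C4/H2AC7/H2BC7 the widest to the inflachromene side (36 in inflachromene against 18 in DMSO).

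Of 13 H3 genes, 7 had a peak in both lists. This is 53.8% (25.1 to 80.8), an interval that includes the 36.6% of all protein-coding genes. H3C6 had a peak in inflachromene alone, H3C10 in DMSO alone, and H3C7, H3C8, H3C12 and H3C13 in neither. H3C13 was the gene just outside the window, with a summit at 1088 bp in inflachromene and 1087 bp in DMSO, and H2AC4 the one just inside, at 893 bp in inflachromene and 902 bp in DMSO. The strongest H3 positions were shared with H2A genes. H3C15 with H2AC19 had 39 fragments in inflachromene and 53 in DMSO. H3C2 with H2AC4 had 39 in inflachromene and 52 in DMSO. H3C14 with H2AC18 had 36 in inflachromene and 51 in DMSO. Summed, these 3 positions gave a ratio of 0.731 (0.569 to 0.936), and 2 of them are copies of one another. At these copies, H3C15 with H2AC19 and H3C14 with H2AC18, the libraries were read at different places. The DMSO summit lay upstream of the H3 start, and the inflachromene summit lay closest to the 3′ end of the H2A gene. The summed ratio therefore does not compare the same bases throughout. H3C3 had 33 in inflachromene and 41 in DMSO, and H3C1 with H4C1 had 28 in inflachromene and 38 in DMSO. H3C10 had 50 fragments in DMSO (37.1 to 65.9), above the DMSO median of 38.5 over shared histone positions, with the summit 66 bp upstream of its start, and no inflachromene peak. Its local background was high, 8.34 fragments, which gave a fold enrichment of 5.46 in a peak 175 bp wide. The weakest of 105 inflachromene peaks at a background within 15% of this held 26 fragments. H3C6 had 15 fragments in inflachromene (8.4 to 24.7) at a background of 1.04. Peaks as low as 8 fragments were called in DMSO at a like background.

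Of 15 H4 genes, 8 had a peak in both lists. This is 53.3% (26.6 to 78.7), an interval that includes the 36.6% of all protein-coding genes. H4C2 and H4C16 had a peak in inflachromene alone, H4C11 in DMSO alone, and H4C6, H4C7, H4C9 and H4C12 in neither. H4C8, whose sequence is shown above, had 38 fragments in inflachromene and 41 in DMSO. H4C14 had 33 in inflachromene and 40 in DMSO, and H4C15 had 34 in inflachromene and 39 in DMSO. H4C3 had 25 in inflachromene and 26 in DMSO. The intervals of the libraries overlapped at each of these genes. H4C5 had 24 in each library, and H4C4 had 16 in inflachromene and 19 in DMSO. Over the 6 shared positions with H4 genes alone, inflachromene was the lower library at 5 and equal at 1, where 77.2% of all shared positions were lower. These 6 positions held 170 fragments in inflachromene and 189 in DMSO. The ratio of 0.899 had an interval of 0.727 to 1.112, which included 1. The H4 genes with a peak in 1 list had like pileups, 22 fragments at H4C2 and 20 at H4C16 in inflachromene and 20 at H4C11 in DMSO. The H4C16 peak also lay at an end of LOC105369669. H4C13 had a second position in inflachromene alone, 78 bp downstream of its start, with 20 fragments.

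Among the 6 linker histone genes, both lists held a peak at H1-2 and H1-4 and neither at H1-1, H1-3, H1-5 and H1-6. This is 33.3% (4.33 to 77.7), near the 36.6% of all protein-coding genes with peaks in both and below the 47.4% with one in at least 1 list, which the interval includes. H1-6 encodes the linker histone of testis. At H1-2 the shared peak lay beyond the 3′ end of the gene, with 29 fragments in inflachromene (19.4 to 41.6) and 34 in DMSO (23.5 to 47.5). At its start a further peak of 19 fragments was called in inflachromene alone. H1-4 was the reverse, with a start peak of 24 fragments in DMSO alone, 57 bp downstream of the start. Its shared peak is the one upstream of H2BC5 described above. The weakest peak called at a like background held 13 fragments in DMSO for the H1-2 start and 18 in inflachromene for the H1-4 start.

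The summits lay close to annotated starts. Of 38 inflachromene positions with a known member start, 31 (81.6%, 65.7 to 92.3) had the summit within 250 bp of it, and of 37 DMSO positions 32 (86.5%, 71.2 to 95.5). At other coding gene ends the shares were 82.4% in inflachromene and 81.2% in DMSO, both within these intervals. The median summit lay 77 bp upstream in inflachromene and 81 bp upstream in DMSO. Where the starts of all members at a position were known, the closest gene end was a start at 31 of 35 inflachromene positions (88.6%) and 32 of 34 DMSO positions (94.1%). At other coding gene ends these shares were 96.9% in inflachromene and 96.4% in DMSO. Both lists had a summit at 3′ ends of H1-2 and H2BC5. At H3C14/H2AC18 and H2AC19/H3C15 the wide DMSO peak had its summit upstream of the H3 start, by 172 bp at H3C14 and 175 bp at H3C15. The highest inflachromene summit lay 740 bp downstream of the H2AC18 start and 748 bp downstream of the H2AC19 start. The pileups at these positions were therefore not read at the same base. H2AC19/H3C15 also held a second inflachromene peak of 38 fragments, with its summit 112 bp from the closest end of H3C15.

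**Figure D3:**
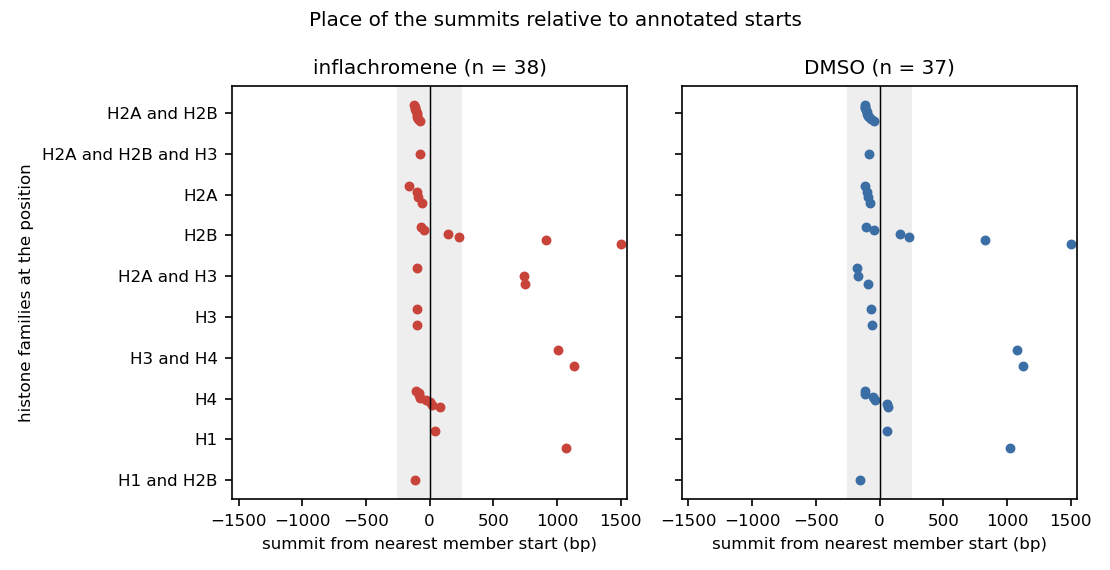
Distance of each summit from the nearest annotated start of a member (bp, negative upstream), by the families at the position, for 38 inflachromene summits (left) and 37 DMSO summits (right); the grey band spans 250 bp either side and the rightmost H2B point, the 3′ end of H2BC5, lies beyond the axis and is drawn at its edge. Most points of both libraries fall in the band, upstream of the start.

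By chromosomal region, 6p22 had 32 positions, 25 of them shared, 4 in inflachromene alone and 3 in DMSO alone, and 1q21 to 1q42 had 10, of which 9 were shared and 1 was in DMSO alone. Summed over shared positions, 6p22 held 860 fragments in inflachromene and 902 in DMSO, a ratio of 0.953 (0.867 to 1.048). The 9 shared positions on 1q, all at 1q21, held 324 in inflachromene and 383 in DMSO, a ratio of 0.846 (0.727 to 0.983). The inflachromene library was inferred to hold 0.964 times the fragments of DMSO, and both intervals include this value. Over all shared positions at coding gene ends the ratio of sums was 0.819. The 1q interval includes 0.819 and the 6p22 interval lies above it. The first block, from H2AC1 to H4C8, had 535 fragments in inflachromene and 566 in DMSO over 17 shared positions. The second, with H2BC11/H2AC11 and H2BC12/H2AC12, had 83 in inflachromene and 117 in DMSO. Its ratio was 0.709 (0.529 to 0.948), an interval that lies below 0.964 and includes 0.819. Without H2BC12/H2AC12 only H2BC11/H2AC11 remains in it, at 0.923. The third, from H2BC13 to H2BC17, had 242 in inflachromene and 219 in DMSO over 6 shared positions, a ratio of 1.105 (0.917 to 1.333), and also held the second H4C13 position, with a peak in inflachromene alone, and H3C10 and H4C11, with peaks in DMSO alone. The interval of the block from H2BC13 to H2BC17 includes 0.964, as does that of the first, 0.838 to 1.066. Both of these intervals lie above 0.819. The difference between blocks was not tested. H2AC17/H2BC17 stood at its end with 49 fragments in inflachromene and 37 in DMSO. H3C11/H4C13 had the highest ratio of this block, 1.467 (0.727 to 3.04), on 22 fragments in inflachromene and 15 in DMSO.

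Of the 15 members without a peak, 6 lay side by side. These neighbouring members from H1-3 to H3C8, namely H1-3, H4C6, H4C7, H3C7, H2BC9 and H3C8, spanned 37.2 kb (chr6:26234212-26271413, hg38) on 6p22 with 0 summits in either list. The flanking members H3C6 and H2BC10 had the weakest peaks of the block, at 15 fragments each in inflachromene. The promoters of H1-3 and H4C6 shown above carry the same H1 box and HINFP core letters as those of H1-4 and H4C8. H2AC1/H2BC1 at the other end of the block stood alone, with the nearest summit 265331 bp from H2BC1 in inflachromene and 265306 bp in DMSO.

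On 1q21, a stretch with H4, H3 and H2A genes occurs as 2 copies. The promoter entries of H4C14 and H4C15 were identical over all 300 bases, those of H3C14 and H3C15 over 296 aligned bases and those of H2AC18 and H2AC19 over 299. Reads from such copies cannot be told apart, and how they were assigned is not given in the sources used here. The H4C14 and H4C15 values given above were close to each other. The start of H2AC18 had 41 in inflachromene and 51 in DMSO, and that of H2AC19 had 37 in inflachromene and 55 in DMSO. The H2AC19 ratio of 0.673 (0.431 to 1.039) and that of the H2BC5 3′ end, 0.694 (0.4 to 1.189), were the lowest after H2BC12/H2AC12, and both intervals included 1. With the second copy left out, the 1q ratio was 0.907 in place of 0.846.

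Over all 34 shared histone positions, inflachromene pileups stood at a median of 0.907 (0.805 to 1.071, from order statistics) times those in DMSO. The median over all 6247 shared positions at coding gene ends, 0.822, lay within this interval. Inflachromene was lower at 21 histone positions, equal at 1 and higher at 12. This is 61.8% lower, against 77.2% over all. In all, the 34 positions held 1184 fragments in inflachromene and 1285 in DMSO, a ratio of 0.921 (0.851 to 0.998), where the sums over all shared positions gave 0.819. This treats fragments as independent, which copies and wide peaks make uncertain. The interval held the ratio of fragment numbers, 0.964, at 32 of the 34 positions, lay below it at H2BC12/H2AC12 and above it at H3C4/H2AC7/H2BC7. The H2BC12/H2AC12 interval, 0.346 to 0.824, includes the 0.819 of all shared positions. That of H3C4/H2AC7/H2BC7, 1.106 to 3.741, lies above 0.819.

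**Figure D4:**
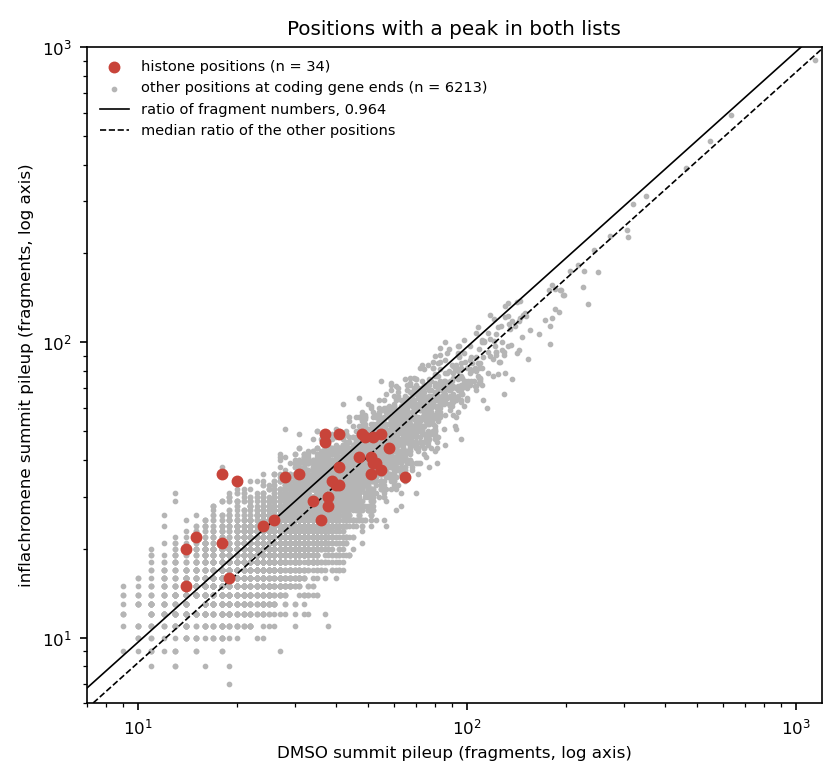
Summit pileup in DMSO (x axis) and inflachromene (y axis), in fragments on log axes, for shared positions; red points are the 34 histone positions and grey points the 6213 others at coding gene ends, the solid line is the ratio of fragment numbers, 0.964, and the dashed line the median ratio of the grey points, 0.821. The red points lie within the grey cloud, on both sides of the solid line.

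The histone positions were set in a higher local background, the number of fragments that the peak caller expected at the summit. Its median over the 34 shared positions was 3.97 in inflachromene and 4.41 in DMSO, against 2.1 in inflachromene and 2.19 in DMSO over all shared positions at coding gene ends. The median pileup was 35.5 in inflachromene and 38.5 in DMSO at histone positions, against 26 in inflachromene and 32 in DMSO over all. The median fold enrichment was lower at histone genes, 7.11 in inflachromene and 6.84 in DMSO, against 8.56 in inflachromene and 10.13 in DMSO over all. At a DMSO background of 3 or more, the median ratio was 0.872 (0.789 to 1.0) over 26 histone positions and 0.808 over 1560 other positions. Over the 8 histone positions below 3 it was 1.119 (0.694 to 1.467), and the histone intervals overlapped. The split uses the DMSO library, which is also the denominator of the ratio, and the part of the background in the ratios was not tested. The highest backgrounds, 8.2 to 8.48 in inflachromene and 10.1 to 10.66 in DMSO, were those of the duplicated H2A and H3 genes on 1q21.

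**Figure D5:**
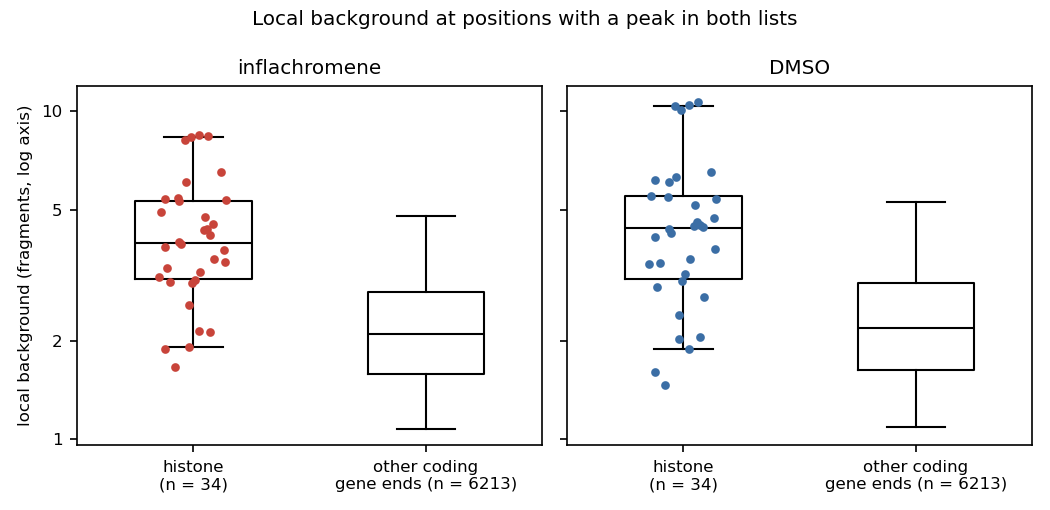
Local background at shared positions (fragments, log axis) in inflachromene (left) and DMSO (right); boxes show the quartiles and whiskers the 5th and 95th percentiles, and coloured points are the 34 histone positions. The histone median was 3.97 in inflachromene and 4.41 in DMSO, above the box of the 6213 other coding gene ends in both panels.

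The blocks held few peaks other than those at histone genes. On 1q21 all 10 inflachromene and 9 DMSO peaks were at member ends. In the first block of 6p22, 20 of 21 inflachromene peaks and 18 of 20 DMSO peaks were. The 6 other coding genes within it had 0 peaks at their ends. This is 0% (0 to 45.9), against 47.4% of all protein-coding genes. From H2AC1 to H2BC17, the 2167.8 kb of 6p22 also contain 98 tRNA genes and 20 other coding genes. In this span 29 of 80 inflachromene peaks and 28 of 95 DMSO peaks were at histone genes, and a further 36 in inflachromene and 48 in DMSO lay within 1000 bp of a tRNA gene. Of the 20 other coding genes, 5 were shared, and 1 had a peak in inflachromene alone and 5 in DMSO alone. A peak in at least 1 list was found at 55% (31.5 to 76.9), against 47.4% of all protein-coding genes. Of those with a DMSO peak, 50% (18.7 to 81.3) had none in inflachromene. The share over all genes, 20.2%, lay within this interval.

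Histone genes that are expressed outside S phase, and genes of histone mRNA production, were compared with the clusters. Of 11 replication-independent histone genes, 7 were shared, MACROH2A1 in DMSO alone (11 fragments) and H1-10, H2AJ and MACROH2A2 in neither. The shared genes are 63.6% (30.8 to 89.1), an interval that includes the 36.6% of all protein-coding genes. H2AX, the variant phosphorylated at DNA breaks, had 89 fragments in inflachromene and 112 in DMSO, and H3-3B, an H3.3 gene, had 77 in inflachromene and 82 in DMSO. CENPA, the centromeric H3 variant gene, had 62 in inflachromene and 42 in DMSO, the highest ratio of the list at 1.476. The median ratio over the 7 genes was 1.0.

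All 11 genes of the transcriptional machinery had a peak in at least 1 list, CCNE2 in DMSO alone at a peak shared with NDUFAF6. This is 100% (71.5 to 100), against 47.4% of all protein-coding genes. NPAT had 74 fragments in inflachromene and 90 in DMSO in a peak that also lay at an end of ATM. HINFP had 66 in inflachromene and 79 in DMSO, and CDK2 had 66 in inflachromene and 85 in DMSO, at the higher of its positions. The CDK2 positions also lay at ends of PMEL and RAB5B. POU2F1, named for its role at the octamer after its values were seen, had 20 in inflachromene and 39 in DMSO. Inflachromene was lower at 9 of the 10 shared genes and higher at YY1, where 77.2% of all shared positions at coding gene ends were lower. The median ratio was 0.771, against 0.822 over all those positions. Of 14 genes that process histone pre-mRNA, 10 were shared, CPSF2 in DMSO alone (at an end of NDUFB1 too), and CPSF1, CSTF2T and ERI1 in neither. The shared genes are 71.4% (41.9 to 91.6), against 36.6% of all protein-coding genes. NCBP2, a cap-binding subunit gene, had 34 fragments in inflachromene and 55 in DMSO, in a peak shared with NCBP2AS2. CPSF3, which encodes the endonuclease, had 27 in inflachromene and 48 in DMSO, shared with ITGB1BP1. SRRT had 36 in inflachromene and 35 in DMSO, and its positions also lay at ends of ACHE and UFSP1. SLBP, the stem-loop binding protein gene, also named after its values were seen, had 21 in inflachromene and 25 in DMSO. The median ratio over the 10 was 0.833, close to the 0.822 of all shared positions at coding gene ends.

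As a check of the cell type, 6 genes were fixed as markers of a carcinoma or epithelial line. Of these, 5 had a peak in at least 1 list (KRT8, KRT18, SOX9 and VIM in both, KRT19 in DMSO alone), and KRT7 had none. This is 83.3% (35.9 to 99.6), an interval that includes the 47.4% of all protein-coding genes. KRT8 and KRT18 were counted at the same peak. Of 11 markers of immune, acinar, islet, endothelial and liver cells, only SPI1 had one, with 18 fragments in each library. This is 9.09% (0.23 to 41.3), an interval below 47.4%.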

How the data were processed

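ChIPmentation peak lists of 2 PANC-1 libraries, inflachromene and DMSO, 1 sample per treatment, were analysed. Per the submitters' processing notes the authors used MACS2 and deepTools 3.5.6 with hg38. The sources used here do not give the MACS2 version, the aligner, duplicate handling or any control. The deposited fold enrichment is a ratio over the local background. The deposited p-value and q-value are on the −log10 scale. The deposited score was not used. The lowest deposited −log10 q was 3.01 in inflachromene and 3.02 in DMSO.

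The pileup was solved from the fold and the p-value, assuming the caller's usual formulas, (pileup + 1)/(background + 1) and a Poisson tail, which no header states. A whole number matched the deposited −log10 p within 0.001 at all 10836 inflachromene and 15186 DMSO peaks on chromosomes 1 to 22 and X, of 10991 deposited for inflachromene and 15354 for DMSO. Tested on simulated data made with the same formulas, it returned all 2000 pileups; this does not test the formulas. Even steps of the background, read as 1 fragment end in a 10 kb window, implied fragment lengths of 165.7 bp in inflachromene and 152.4 bp in DMSO and, with the lowest backgrounds of 0.683 in inflachromene and 0.651 in DMSO, a ratio of fragment numbers of 0.964. Total depth is unknown.

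Genes came from RefSeq (GRCh38.p14, coordinates as hg38), and starts and strands from its promoter table. Peaks overlapping by at least 1 bp formed a position, for which the highest pileup of each list stands; a gene took the class of its positions. Blocks are members less than 500 kb apart. Shares have exact Clopper-Pearson, pileups exact Poisson and ratios exact conditional binomial 95% intervals, computed with scipy 1.17.1 in Python 3.11.15. Intervals of median ratios come from order statistics over positions. No test between treatments was possible. The genes named were each position with a peak in 1 list alone, the 3 highest mean pileups per family, the 3 lowest and 3 highest ratios, the germ-cell genes and members outside the regions; other members serve as further examples and were picked after their values were seen. The members, lists and motifs were chosen with earlier results of these data known. Alternatives varied the window, the overlap, the threshold, the list length and the measure.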

Additional observations from a re-analysis of the deposited data

How the results depend on the processing

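Each treatment had 1 sample, so no spread between cultures is known and no call rests on a test. No paired analysis was possible because the results come from no test and each group holds 1 sample. Of 54 recomputed values, 49 stayed within 1.5 times the count or within the interval of the main value. The median ratio and the 2 regional ratios stayed below 1. With 50% reciprocal overlap, 10 histone positions were in inflachromene alone in place of 5 and 8 in DMSO alone in place of 4, as pairs of unequal width are split. With a −log10 q of 5 or more in both lists, 8 genes were in inflachromene alone in place of 3. With the DMSO list at the length of the inflachromene list, 12 genes and 11 positions were in inflachromene alone in place of 3 and 5. Fewer DMSO peaks were kept there by construction. The same counts over all protein-coding genes were not computed at any of these settings. The authors' fold enrichment in place of pileup gave a median ratio of 0.971, and ratios of sums of 0.997 on 6p22 in place of 0.953 and 0.975 on 1q in place of 0.846. The 1q21 copies were left out as an alternative chosen after the data were examined. At pileups of 14 to 65 fragments, counting error leaves most single ratios undecided.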
